A study of Ictidomys tridecemlineatus with 15 samples.

Results

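The 100 bipolar-specific rows are the gene rows of the count matrix whose level in bipolar cells stood furthest above their level in every other annotated retinal cell type. For each row, unique molecular identifiers (UMIs, each marking a single captured mRNA molecule) were summed over all cells of a type and scaled to counts per 1000000 UMIs of that type (CPM). The score of a row was log2 of its bipolar CPM plus 10 over its highest CPM in any of the 11 other types plus 10, and the 100 highest scores were taken among the 3332 rows with at least 50 CPM in bipolar cells, out of 33569 rows with a count. The files do not pair gene names with matrix rows, so members are given by row number, counted from 1, and their functions and sequences are not given. For the same reason the bipolar label of the deposited annotation was not checked against named marker genes.

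Bipolar cells carry the output of rods and cones to ganglion and amacrine cells, and they fall into ON and OFF kinds that respond to light in opposite ways. They are among the last retinal neurons to form, from late-stage neurogenic progenitors that also give photoreceptors. Photoreceptor precursors are immature cells that do not yet carry the full outer segment and synapse genes of cones and rods. In its integrated late-stage data the study describes a joint population of bipolar cell and photoreceptor precursors. It proposes that progenitors able to give both bipolar cells and cones may exist, which it leaves to further work.

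The measurements are single-cell RNA sequencing of retinas of captive 13-lined ground squirrels (13LGS), whose photoreceptors are mostly cones, with no treatment or genetic change in any group. The 7 libraries taken before birth came from E18 (1 library), E21, E24 and E26 (2 libraries per age), and the 7 taken after birth from P4 (1), P8 and P12 (2 per age), P17 (1) and P21 (1), where a and b tell libraries of the same age apart. Age in days counts from conception, with birth at day 27. The libraries held 46474 cells, of which 6324 were annotated as bipolar, with a median of 5230.5 to 11868 UMIs per cell before birth and 1548 to 4175 after it, so that depth and stage run together. The sources name methanol-fixed and flash-frozen retinas without saying which library was which, and do not say how many animals a library held, so p-values measure the spread between libraries, which may be technical.

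The list made up 3.00% of the UMIs of bipolar cells (599572 of 19998001). In the other types its share ran from 0.136% in early-stage neurogenic progenitors to 0.560% in photoreceptor precursors, with 0.519% in cones, 0.441% in amacrine cells and 0.378% in late-stage neurogenic progenitors. The median member stood at 140 CPM in bipolar cells, 29.1 CPM in precursors, 26.9 CPM in cones, 21.9 CPM in amacrine cells and 17.4 CPM in late-stage neurogenic progenitors. These differences follow from the rule and are given as a description. The type that came second to bipolar cells was the amacrine cell for 25 members, the cone for 20, the precursor for 18, the ganglion cell for 12, the rod for 7, the late-stage neurogenic progenitor and Müller glia for 6 each, the horizontal cell for 4, and early-stage neurogenic and early-stage primary progenitors for 1 each.

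**Figure D1:**
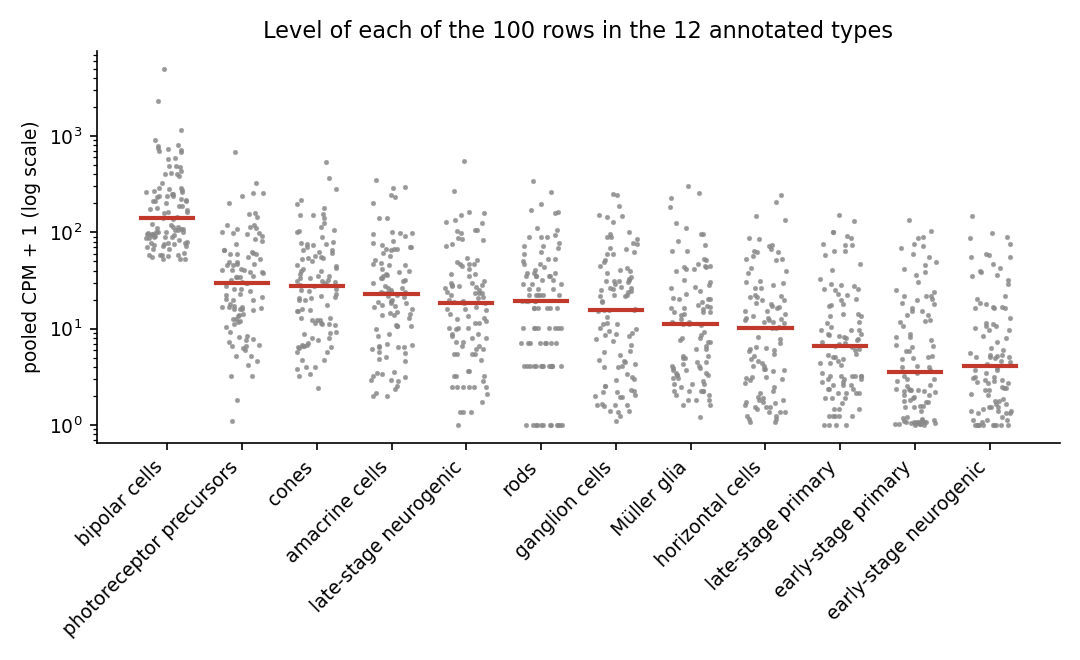
Pooled CPM plus 1 on a log scale of each of the 100 members (grey points, spread sideways at random) in the 12 annotated types, ordered by the share of UMIs from the list, with the median of the members as a red line. The medians fall from 140 CPM in bipolar cells to 29.1 CPM in precursors and 2.58 CPM in early-stage primary progenitors.

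The highest scores belonged to rows 24255, 12380, 32680, 24236, 21040, 16096, 33323, 13683, 6843 and 31099, in that order. Row 24255 stood at 737 CPM in bipolar cells and at 61.6 CPM in cones, its next highest type. Row 12380 stood at 218 CPM in bipolar cells and 12.8 CPM in amacrine cells, and row 32680 at 122 CPM in bipolar cells and 7.04 CPM in late-stage neurogenic progenitors. The margin was narrower at the lower end of the list. Rows 8884, 20064 and 6209, at ranks 98 to 100, had scores of 0.885, 0.884 and 0.854, and rows 26043, 26572 and 14163 just outside it had 0.838, 0.825 and 0.809. Row 6209 still stood at 142 CPM in bipolar cells against 74.1 CPM in ganglion cells, so the last members also stood high in another type.

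The list was uneven. UMIs were counted from 3′ ends, which ties a count to molecules and not to transcript length. Row 16096 held 100530 UMIs in bipolar cells, 16.8% of the list's UMIs, and row 951 held 45741, or 7.63%. Row 33323 followed with 23291. Members lay close together in the row order in some cases: 6 pairs had adjacent row numbers, and 26 members stood in 13 neighbouring pairs at most 10 rows apart. The files do not say whether the row order follows the genome. Adjacent rows could differ in level while keeping a like order of types. Row 12297 stood at 490 CPM in bipolar cells, 195 CPM in cones, 112 CPM in precursors and 4.60 CPM in amacrine cells, and its neighbour 12296 at 75.3, 29.5, 16 and 1.17 CPM in the same types.

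The first question is how the list behaves as bipolar cells age. The rule took no account of age, but it ranked rows on pooled bipolar UMIs, of which 6.68% came from the P8 libraries, 50.1% from P12 and 43.2% from P17 and P21, so rows higher in older bipolar cells were favoured and the values by age are not independent of it. Within bipolar cells the share of UMIs from the list was 1.92% and 1.83% in the P8 libraries, 2.52% and 2.61% at P12, 3.49% at P17 and 3.96% at P21. The ages followed each other with no overlap, and the libraries of a time point lay close together, with a mean of 1.87% ± 0.0630 (SD, n = 2) for the P8 pair and of 2.56% ± 0.0613 (SD, n = 2) for the P12 pair. At P4 only 3 bipolar cells were annotated, and they entered no test. Part of the rise came from row 16096, which stood at 2559 and 1221 CPM at P8, 1762 and 2503 CPM at P12, 8882 CPM at P17 and 8192 CPM at P21. Without this row the list took 1.66% and 1.71% at P8, 2.34% and 2.35% at P12, 2.60% at P17 and 3.14% at P21, in the same order of ages.

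**Figure D2:**
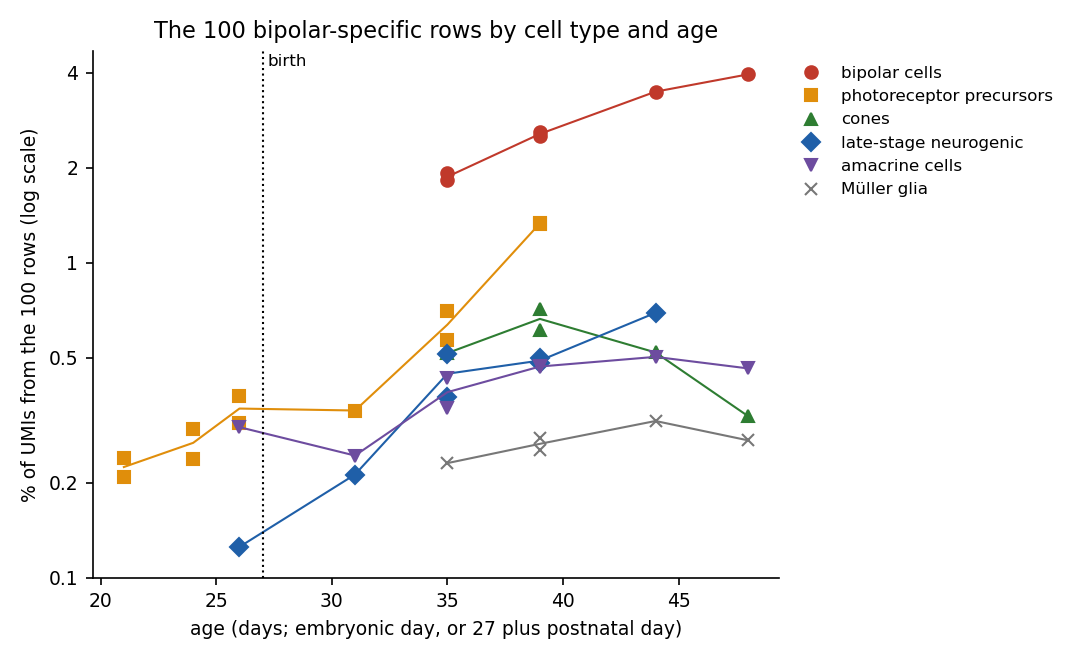
Share of UMIs from the 100 members (log scale) against age in days, 1 point per library with at least 10 cells of the type and lines through the mean of each time point, with birth dotted. Bipolar cells rise from 1.83% and 1.92% at P8 to 3.96% at P21, precursors reach 1.34% and 1.33% at P12, and cones go from 0.713% and 0.613% at P12 to 0.326% at P21.

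Sums of UMIs per library were compared between stages with edgeR's quasi-likelihood test over all rows that passed a filter on low counts, and a row was called where its p, adjusted by Benjamini and Hochberg's method, was below 0.05. Between P8 and the pair P17 and P21, all 100 members passed the filter and 10 were called, all of them higher in the older cells, against 0.608% of the 13497 rows tested called in either direction, 0.378% higher and 0.23% lower. The median log2 change of the members was 0.73, beside 0.07 over all rows. With the list chosen again on libraries of equal weight, which kept 84 of the members, 8 of the 100 rows were called and the median was 0.56. Over unfiltered means of library CPM, 80 of the 100 members were higher at P17 and P21, as were 65.5% of all rows with a count. The number of calls depended on the P8 libraries: it was 0 without P8a, where 42 members had an unadjusted p below 0.05, and 1 without P8b, and it was 18 without P12a, 18 without P12b and 25 without P17, while the median change ran from 0.65 to 0.80 when any library was left out. With 2 libraries on each side the calls cover few members, and 50 members had an unadjusted p below 0.05.

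Row 26505 had no UMI in the bipolar cells of P8a and P8b, 7.06 and 5.68 CPM at P12, 115 CPM at P17 and 141 CPM at P21. The groups did not overlap, and pooled over P17 and P21 its level was at least 55.4-fold higher than the level that 3 UMIs over both P8 libraries would give (edgeR adjusted p = 0.00363). Row 28297 stood at 2.83 CPM (3 UMIs) and 0 at P8, 16.8 and 14.1 CPM at P12, 44.0 CPM at P17 and 229 CPM at P21. Its pooled level was 48.9 times that at P8, with a 95% counting interval of 16.7 to 237 that leaves out the spread between libraries (edgeR adjusted p = 0.0404). Over the alternatives tried the adjusted p of these rows reached 0.207 and 0.546. Both rows appeared late, and the P21 library held over 5 times the CPM of the P17 library for row 28297 but not for row 26505.

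Among the 10 highest-scoring members, 4 were called higher with age. Row 33323 stood at 144 and 116 CPM at P8, 302 and 505 CPM at P12, 1920 CPM at P17 and 2596 CPM at P21, a log2 change of 4.04 ± 0.41 (SE, edgeR adjusted p = 0.004). Row 32680 stood at 11.3 and 10.9 CPM at P8, 33.6 and 15.8 CPM at P12, 169 CPM at P17 and 419 CPM at P21, a log2 change of 4.64 ± 0.64 (SE, adjusted p = 0.014). Rows 24236 and 13683 changed by 1.85 and 3.02 on the log2 scale (adjusted p = 0.046 and 0.014). The first-ranked row behaved otherwise: row 24255 stood at 686 and 511 CPM at P8, 1215 and 729 CPM at P12, 537 CPM at P17 and 693 CPM at P21, with overlapping stages and a log2 change of −0.02 ± 0.37 (SE, adjusted p = 0.992).

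**Figure D3:**
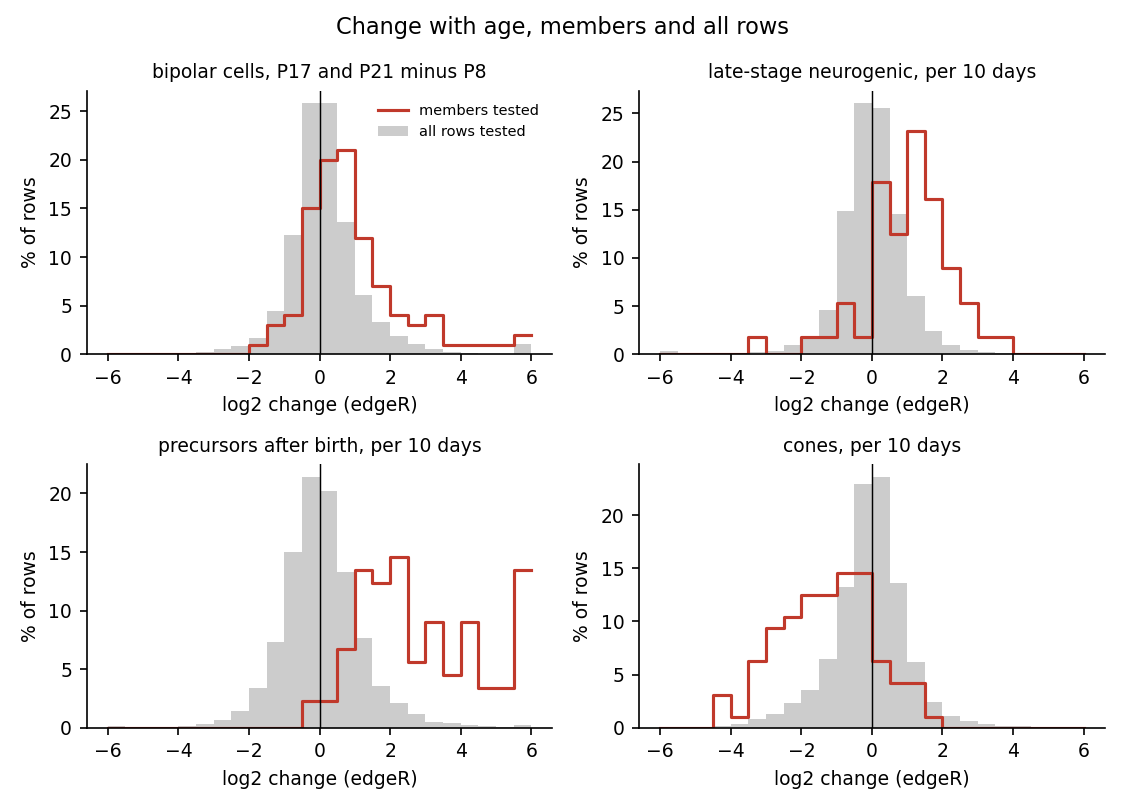
Distribution of log2 changes in bins of 0.5 for all rows tested (grey bars) and the members tested (red line), in bipolar cells between P8 and the pair P17 and P21, and per 10 days in late-stage neurogenic progenitors, postnatal precursors and cones; values beyond the axis are counted in the outermost bins. The member medians are 0.73, 1.2, 2.44 and −1.26, and the grey bars centre near 0 in every panel.

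Members also differed in how they were spread over single bipolar cells. The share of cells with at least 1 UMI of a row was compared with the share that its mean level and the cells' depths would give if all bipolar cells of the library had the same level. The median member reached 0.902 to 0.991 of that share in the 6 libraries. The median share of cells with a UMI was itself only 17.5% (P8a) to 35.7% (P12b). At such shares the ratio stays near 1 even for a row limited to a part of the cells, so it cannot show an even spread. The 4 members furthest below it, by the mean ratio over libraries, were rows 24255, 21040, 29973 and 11488, at 0.578, 0.678, 0.721 and 0.728. Row 24255 was found in 28.2% of the bipolar cells of the P21 library, where its mean level would give 71.0%, and in 32.1% at P17, where it would give 70.1%. Each cell was then thinned to 1000 UMIs, which left out 164 of 6321 bipolar cells. Row 24255 was found in 21% to 44.9% of thinned bipolar cells over the libraries. In the same libraries it was found in 0.191% to 4.04% of amacrine cells and 0.291% to 2.35% of Müller glia. The median depth before thinning was 1706 to 3838 UMIs in these bipolar cells, 2011 to 3622 in amacrine cells and 2586.5 to 5207 in Müller glia. Row 11488 was found in 3.62% to 20.5% of thinned bipolar cells, against 0.163% to 0.847% of amacrine cells. Row 16096 was found in 42.7% to 77.4% of thinned bipolar cells but also in 16.1% to 37.1% of amacrine cells and 12.7% to 28.8% of Müller glia, so its UMIs spread widely outside bipolar cells.

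Members that were missing from many bipolar cells were not missing from the same ones. Rows 12380 and 26505 were chosen for this comparison after their values were seen. In thinned bipolar cells of the P17 library, row 12380 was found in 227 and row 26505 in 224 of 2014 cells, and 1 cell held both, 0.04 times the number that independence would give. In the P21 library the counts were 345 and 181 of 1379 cells, and again 1 cell held both, a ratio of 0.02. In both libraries these rows were thus rarely found in the same cell. Of the 93 other members with enough cells to compare (at least 5 expected together with each of the rows in both libraries), 8 were found with row 12380 more than 1.5 times and with row 26505 less than 0.5 times as often as independence would give, in both libraries. Row 21040 was 1 of them, with ratios of 2.41 and 2.18 with row 12380 and of 0.10 and 0.08 with row 26505 at P17 and P21. At looser cutoffs, another 8 members were found with row 26505 more than 1.2 times and with row 12380 less than 0.7 times as often. The sizes of these sets are therefore not comparable. Row 33323, by contrast, was found in 1531 of 2014 cells at P17 and 1246 of 1379 at P21. Its ratios lay between 0.97 and 1.14 with either row, so it was found in cells that held either of them. A row found in so many cells has little room above 1, so these ratios cannot show an even level. At P12 row 26505 was found in 10 and 7 thinned cells, too few to place it. These ratios describe the cells of 2 libraries and carry no test.

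**Figure D4:**
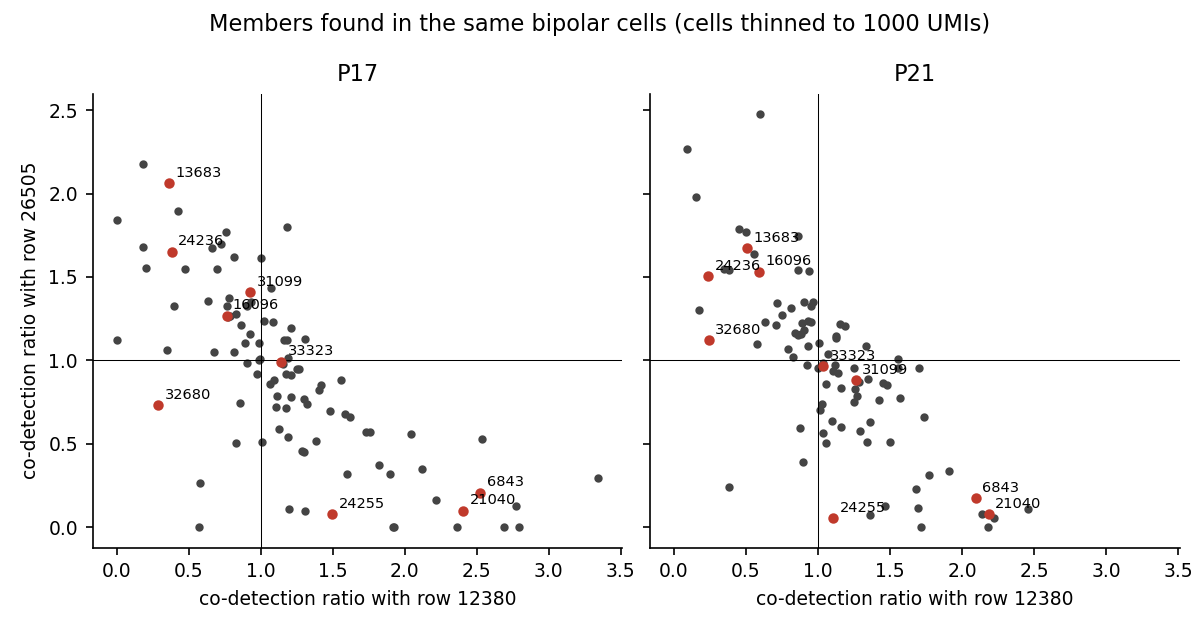
For each member with at least 5 cells expected, the number of bipolar cells holding it together with row 12380 (horizontal) and with row 26505 (vertical), each divided by the number that independence would give, in the P17 and P21 libraries with cells thinned to 1000 UMIs; the highest-scoring members are named in red. Members lie along a falling diagonal, with row 21040 at 2.41 and 0.10 in P17 and row 33323 near 1 on both axes.

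Before birth no bipolar cell was annotated, and most members were low but present. Over all embryonic cells every member had a UMI, 18 of 100 were below 1 CPM, 40 were at 10 CPM or more and 12 at 50 CPM or more, with a median of 7.06 CPM. The embryonic libraries hold 192915932 UMIs, so that 1 CPM is a large number of molecules there. Embryonic precursors had a median member level of 8.37 CPM and embryonic ganglion cells 9.76 CPM, above the 2.58 CPM of embryonic early-stage primary progenitors. Row 6861 was the highest member before birth, at 182 CPM over all embryonic cells against 799 CPM in bipolar cells, a row chosen after its value was seen.

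Photoreceptor precursors were present on both sides of birth. Their share of UMIs from the list was 0.209% to 0.379% in the 6 embryonic libraries, with a median of 0.269%, and then 0.340% at P4, 0.703% and 0.569% at P8, and 1.34% and 1.33% at P12. The P4 library lay within the embryonic range, and the P8 and P12 libraries lay above it. Between postnatal and embryonic precursors 60 members passed the filter, 35 were called higher and 1 lower, where 24.7% of the 8571 rows tested were called, 13.4% higher and 11.3% lower. The 40 members that did not pass had too few UMIs in too many of these embryonic and postnatal libraries. In the postnatal libraries alone 89 members passed. By the mean of library CPM, 89 of the 100 members were higher after birth, as were 52.0% of all rows with a count.

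Row 2120 stood at 0 to 3.49 CPM in embryonic precursors (median 1.48, n = 6), at 14.7 CPM in those of P4, 78.2 and 78.1 CPM at P8 and 291 and 219 CPM at P12. All postnatal libraries lay above all embryonic ones, and the log2 change was 5.85 ± 0.73 (SE, edgeR adjusted p = 2.82e-05). Row 33323 stood at 0 to 4.39 CPM before birth and at 14.7, 40.8, 35.1, 126 and 180 CPM in the postnatal libraries in order of age, also without overlap, and its log2 change was 5.84 ± 0.84 (SE, adjusted p = 9.7e-05). The pooled ratios of these rows, on 7 and 4 embryonic UMIs, were 53.8 and 57.6 with counting intervals of 25.9 to 134 and 22.3 to 212. Row 32742 was the exception, with 68.6 to 83.9 CPM before birth and 20.4 to 64.1 CPM after it and a log2 change of −1.0 ± 0.25 (SE, adjusted p = 0.00796). Row 16096, the member with the most UMIs in precursors, stood at 0 to 78.7 CPM before birth, 391 CPM at P4, 1278 and 686 CPM at P8, and 1152 and 2399 CPM at P12. Row 951, the next, stood at 32.9 to 67.5 CPM before birth, 63.5 CPM at P4 and 642 and 973 CPM at P12.

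After birth alone, the age course of precursors was fitted per 10 days over the 5 postnatal libraries, a comparison added after the data were seen. Of the 89 members tested, 15 were called, all rising. Of the 9142 rows tested, 28 were called (0.306%), of which 24 rose (0.263%) and 4 fell (0.0438%). Members thus made up 15 of the 24 rising calls, but this count is not independent of the rule. Pooled precursor UMIs also set its ceiling, and 1.84% and 11.3% of them came from P12a and P12b, against 32.2% from P8b. Rows high in precursors only at P12 were therefore favoured over rows already high there earlier. The median slope of the members was 2.44 per 10 days on the log2 scale, and 87 of the 89 lay above 0. Of all 100 members, 96 had a higher mean CPM at P12 than at P4, as were 60.6% of all rows with a count. Row 24236 stood at 0 CPM at P4, 6.80 and 4.08 CPM at P8 and 38.4 and 41.9 CPM at P12 (edgeR adjusted p = 0.0216), and row 23517 at 0, 4.53, 3.14, 21.9 and 33.9 CPM in the same libraries (adjusted p = 0.0328). The calls rested on the P12 libraries, which held 36 and 94 precursors: there were 0 without P12a, where 57 members had an unadjusted p below 0.05, and 3 without P12b. There were 30 without P8b.

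Depth moved with this result. Precursors at P12 held a mean of 5064 and 11941 UMIs per cell, bipolar cells of the same libraries 3016 and 5534, and cones 4664 and 6868. Without cells above 2 times the median UMI count of their library and type, which removed 6 and 24 of the P12 precursors, no member was called (49 members had an unadjusted p below 0.05 in edgeR), but the list still took 1.29% and 1.22% of UMIs and the median slope was 2.16. Among the precursors at or below the median depth the list took 1.28% and 1.11% at P12, and above it 1.36% and 1.38%. The part of depth, and of cells captured together, in this result was not tested further, and no doublets were removed.

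The P12 precursors carried bipolar and cone rows side by side. A list of 100 cone-specific rows, chosen by the same rule for cones, took 1.02% and 1.14% of their UMIs, against 0.440% and 0.353% in bipolar cells and 2.29% and 2.16% in cones of the same libraries. Precursors thus lay between bipolar cells and cones on both lists, whereas amacrine cells at P12 had 0.467% and 0.470% of the bipolar list and 0.367% and 0.299% of the cone list. With cells thinned to 1000 UMIs, the median P12 precursor held 12 UMIs of the bipolar list in both libraries (quartiles 8 and 16), the median bipolar cell 24 and 25, the median cone 5 and 4 and the median amacrine cell 4 and 5. The share of precursors that reached the 10th percentile of bipolar cells was 27.8% (10 of 36, 95% exact interval 14.2% to 45.2%) in P12a and 21.5% (20 of 93, 13.7% to 31.2%) in P12b, against 1 of 1809 and 1 of 1410 amacrine cells. These intervals cover counting error only. It was 20.4% in P8a and 4.33% in P8b, so the libraries of P8 differed. At least 8 UMIs of each list were held by 24 of the 36 precursors in P12a and 60 of the 93 in P12b. At P8 this was so for 31 of 157 in P8a and 26 of 669 in P8b. Other types were not counted at this cutoff. The upper quartile of P12 cones was 8 and 7 UMIs of the bipolar list, so the cutoff does not set precursors apart from all cones. Members were also compared per cell and not per UMI. The level of a member in precursors was a median of 89.1% of that in bipolar cells of P12a (10th to 90th percentile 44.6% to 143% over 98 members). In P12b it was 104% (63.9% to 139% over 99 members). The greater depth of precursors raises these percentages, at 5064 and 11941 UMIs per cell against 3016 and 5534 in bipolar cells. Per UMI the list took 1.34% and 1.33% in precursors against 2.52% and 2.61% in bipolar cells.

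**Figure D5:**
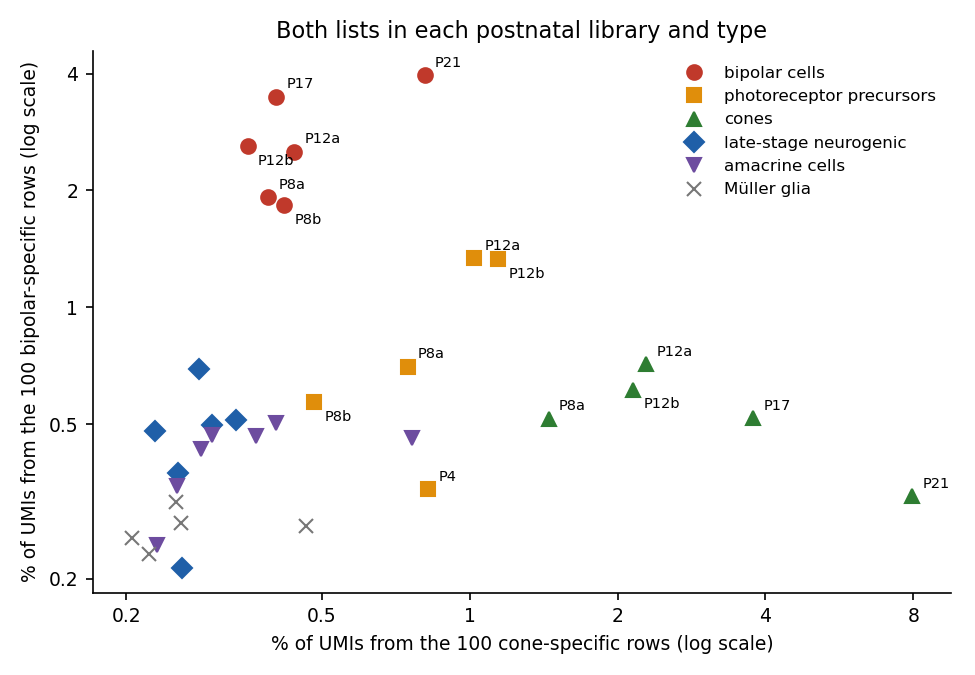
Share of UMIs from the 100 cone-specific rows (horizontal, log scale) and from the 100 bipolar-specific rows (vertical, log scale) in each postnatal library and type with at least 10 cells; libraries are written beside bipolar cells, precursors and cones. P12 precursors sit at 1.02% and 1.34% (P12a) and 1.14% and 1.33% (P12b), between bipolar cells at the top and cones at the right.

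Amacrine cells served as a reference for what the list reads in another neuron type of the same library. Precursors were compared with them in 5 postnatal libraries with the library as a block, and both types also set the ceiling in the rule. Of the 95 members tested, 56 were called higher and 4 lower in precursors, where 32.3% of the 12516 rows tested were called, 16.3% higher and 16% lower. In a fit without the library block 39 were called. By the mean of library CPM, 81 of the 100 members were higher in precursors, as were 41.1% of all rows with a count. Row 12297 stood at 250, 202, 58.1, 357 and 274 CPM in the precursors of P4, P8a, P8b, P12a and P12b and at 2.52 to 10.1 CPM in their amacrine cells, higher in 5 of 5 libraries (log2 difference 5.71 ± 0.31 SE, edgeR adjusted p = 3.51e-08). Row 15516 stood at 24.9 to 78.4 CPM in precursors and 0.672 to 2.88 CPM in amacrine cells, higher in 5 of 5 (4.75 ± 0.33 SE, adjusted p = 1.94e-07). Rows 12819 and 26355 went the other way in 5 of 5 libraries, at 0 to 4.53 and 1.22 to 8.02 CPM in precursors and 12.1 to 31.6 and 4.18 to 37.8 CPM in amacrine cells (log2 differences −2.83 ± 0.40 and −2.37 ± 0.31 SE, adjusted p = 9.31e-05 and 4.69e-05). Members called here thus divided into rows higher in precursors and rows higher in amacrine cells. Rows 12819 and 26355 passed the rule on pooled ages but did not set bipolar cells apart from amacrine cells at P8 and P12. In P8a, P12a and P12b row 12819 stood at 3.77 to 12.8 CPM in bipolar cells and 17.3 to 30.7 CPM in amacrine cells. Row 26355 was also lower in bipolar cells at these ages, with 176 of 7044256 UMIs in P12b against 223 of 5893045 in amacrine cells. At P17 and P21 row 12819 stood at 96.5 and 130 CPM in bipolar cells. In amacrine cells the level of a member per cell was a median of 12.8% and 10.5% of that in bipolar cells at P12. The 10th to 90th percentile was 2.25% to 35.3% in P12a and 1.62% to 34.8% in P12b. Amacrine cells held fewer UMIs per cell than precursors, at 2449 in P12a and 4127 in P12b, so these values are not on the scale of the precursors' values.

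Late-stage neurogenic progenitors carried the list at a lower level that rose with age. The share of UMIs was 0.213% at P4, 0.375% and 0.514% at P8, 0.499% and 0.479% at P12 and 0.693% at P17, with P8 and P12 overlapping. In late-stage primary progenitors it was 0.147% at P4, 0.194% and 0.270% at P8 and 0.282% and 0.237% at P12. In amacrine cells it was 0.244% at P4, 0.345% and 0.431% at P8, 0.467% and 0.470% at P12 and 0.502% at P17. A rise with age was thus not particular to neurogenic progenitors. With age after birth, 56 members passed the filter in late-stage neurogenic progenitors and 6 were called, all rising, where 2.51% of the 6773 rows tested were called and 1.18% rose. The median slope was 1.2 per 10 days on the log2 scale beside 0.01 over all rows. By the mean of library CPM, 83 of the 100 members were higher at P12 and P17 than at P4 and 13 were lower, and 56.6% of all rows with a count were higher. The count was 2 without P4, 3 without P12b and 10 without P17. Pooled UMIs of this type also set the rule's ceiling, with 23.4% of them from P4, 26.8% from P8a and 6.26% from P17. Rows high in these progenitors only at P17 could thus pass the rule more easily.

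Row 33323 stood at 4.76 CPM in these progenitors at P4, 13.9 and 23.7 CPM at P8, 26.6 and 34.6 CPM at P12 and 172 CPM at P17, in the order of age (slope 3.81 ± 0.53 SE per 10 days on the log2 scale, edgeR adjusted p = 0.000204). Row 18898 stood at 6.34, 8.31, 23.7, 13.3, 38.1 and 100.6 CPM in the same libraries (3.17 ± 0.64 SE, adjusted p = 0.00679). These levels rest on 2 to 29 UMIs of each row per library. Row 33323 rose in amacrine cells too, from 5 of 2153142 UMIs at P4 to 993 of 7036779 at P17. Row 951 was the highest member here, at 166 CPM at P4, 501 and 593 CPM at P8, 688 and 887 CPM at P12 and 1373 CPM at P17, while in bipolar cells it stood at 1306 and 1901 CPM at P8, 1823 and 2444 CPM at P12, 2846 CPM at P17 and 1738 CPM at P21. Row 16096, the next, stood at 95.1 CPM at P4, 240 to 522 CPM at P8 and P12 and 805 CPM at P17.

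Against late-stage primary progenitors of the same 5 libraries, 55 members were tested, 30 were called higher in neurogenic progenitors and none lower, where 16.5% of the 7712 rows tested were called, 7.61% higher and 8.87% lower. By the mean of library CPM, 75 of the 100 members were higher in neurogenic progenitors and 24 lower, and 47.6% of all rows with a count were higher. The number called was 18 without P8a and 6 in a fit without the library block. Row 32841 stood at 36.5, 84.5, 71.2, 116 and 107 CPM in neurogenic progenitors and 3.42, 3.28, 21.7, 0 and 5.80 CPM in primary ones, higher in 5 of 5 libraries (log2 difference 3.83 ± 0.33 SE, edgeR adjusted p = 5.77e-08). Row 1357 stood at 19.9 to 33.3 CPM and 0 to 7.23 CPM, also higher in 5 of 5 (3.76 ± 0.49 SE, adjusted p = 9.4e-06). Cell by cell, few neurogenic progenitors reached bipolar levels: 9 of 289 in P8a (3.11%, 95% exact interval 1.43% to 5.83%), 1 of 33 in P8b, 1 of 125 and 1 of 117 at P12, and 0 of 47 at P17, which allows a share of up to 6.38% by a floor of 3 cells and 7.55% by the exact interval.

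Cones carried the list at P12 and less of it at P21. The share of UMIs was 0.517% in P8a, 0.713% and 0.613% at P12, 0.519% at P17 and 0.326% at P21, which was the lowest of the cone libraries. Of the 96 members tested over the 5 libraries, 13 were called falling and 1 rising with age, where 4.71% of the 12742 rows tested were called, 1.54% falling and 3.17% rising. The median slope of the members was −1.26 per 10 days on the log2 scale beside −0.03 over all rows. Of the 100 members, 87 had a lower mean CPM at P17 and P21 than at P12, while 37.9% of all rows with a count were higher. The count fell to 4 without P12a and to 1 without P21, so that the P21 library carried most of these calls. It was 7 without cells above 2 times the median UMI count, and without those cells the P12 cones had 0.569% and 0.544% of their UMIs from the list. Among P12 cones at or below the median depth the list took 0.488% and 0.517%, and above it 0.775% and 0.641%. The cones of P17 and P21 were not split by depth, so the shares of the shallower P12 cones cannot be set against theirs. Over all cones P12 lay above P17, at 0.713% and 0.613% against 0.519%, and P21 lay lowest at 0.326%.

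Row 1717 stood at 19.8 CPM in the cones of P8a, 13.9 and 7.58 CPM at P12, 0.571 CPM at P17 and 0.502 CPM at P21, on 1 and 2 UMIs in the last libraries (slope −4.39 ± 0.92 SE, edgeR adjusted p = 0.0191). Row 13426 stood at 27.7, 34.2, 19.3, 7.43 and 0 CPM in the same order (−4.23 ± 1.02 SE, adjusted p = 0.036). Row 10705 rose, at 27.7, 38.7, 17.1, 67.4 and 80.1 CPM (1.84 ± 0.45 SE, adjusted p = 0.0393). Row 16096 was the highest member in cones, at 324 CPM in P8a, 610 and 731 CPM at P12, 796 CPM at P17 and 271 CPM at P21, and row 15175 followed at 273 to 481 CPM. Neither was called with age, with slopes of 0.04 ± 0.55 and 0.57 ± 0.33 (SE, adjusted p = 0.983 and 0.383).

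The age courses in cones and bipolar cells were then compared directly in the 5 libraries that held both, with the library as a block, a comparison added after the data were seen. Of the 100 members, 70 were called with a lower slope in cones than in bipolar cells and 1 with a higher one, where 8.99% of the 14160 rows tested were called, 4.58% lower and 4.41% higher. The median difference in slope was −1.96 per 10 days on the log2 scale, beside 0.03 over all rows, and the number called was 31 without P21. The rule compared pooled levels in these types, so it may favour rows of this kind: 50.1% of the pooled bipolar UMIs came from P12 and 43.2% from P17 and P21, and for cones these shares were 46.9% and 50.7%. Row 12819 stood at 3.77 CPM in the bipolar cells of P8a, 12.8 and 10.2 CPM at P12, 96.5 CPM at P17 and 130 CPM at P21, and at 0, 4.89, 1.90, 4.0 and 0 CPM in cones (difference −6.49 ± 0.96 SE, edgeR adjusted p = 0.000137). Row 15516 rose from 44.3 to 264 CPM in bipolar cells between P8a and P21, and stood in cones at 0 in P8a, 22.2 and 21.6 CPM at P12, 4.57 CPM at P17 and 0.502 CPM at P21 (−4.93 ± 0.63 SE, adjusted p = 2.81e-05). Row 14621 had the opposite pattern, at 74.5, 59.8, 71.0, 40.2 and 12.4 CPM in bipolar cells and 15.8, 10.5, 11.4, 1.71 and 12.6 CPM in cones (2.41 ± 0.67 SE, adjusted p = 0.0256), and its sign turned without P21.

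Against amacrine cells of the same 5 libraries, members were called in both directions in cones. All 100 members were tested, 40 were called higher and 27 lower in cones, where 46.6% of the 15428 rows tested were called, 20% higher and 26.6% lower. The median difference was −0.02 on the log2 scale, and it ran from −0.28 without P12a to 0.40 without P21, so it had no stable sign. By the mean of library CPM 53 members were higher and 47 lower, while 39.8% of all rows with a count were higher. Rows 12297 and 12296 were higher in cones in 5 of 5 libraries, at 128 to 246 and 7.91 to 40.2 CPM against 2.52 to 5.6 and 0.838 to 1.57 CPM in amacrine cells (log2 differences 5.50 ± 0.16 and 4.53 ± 0.30 SE, edgeR adjusted p = 5.17e-08 and 2.44e-06). Rows 26355 and 12819 were lower in 5 of 5, at 0 to 6.28 and 0 to 4.89 CPM in cones against 16.2 to 59.6 and 17.3 to 30.7 CPM in amacrine cells (−3.69 ± 0.31 and −3.44 ± 0.46 SE, adjusted p = 1.11e-05 and 0.000222). Rows 12819 and 26355 had the same sign in precursors and cones, and so did row 12297, but both comparisons share the amacrine cells of the P8a and P12 libraries. At P17 and P21, 0 of 398 and 0 of 1505 thinned cones reached the 10th percentile of bipolar cells, which allows shares of up to 0.754% and 0.199% by a floor of 3 cells and 0.923% and 0.245% by the exact interval, against 21 of 564 (3.72%) in P12a and 4 of 382 (1.05%) in P12b.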

How the data were processed

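Retinas of 13LGS were profiled with the 10x Chromium 3′ v3.1 kit. Per the study's methods the authors ran Cell Ranger 3.1.0 on the HiC_Itri_2 assembly and analysed cells in Seurat 4.0.4. The deposited matrix holds UMI counts per gene row and cell, whole numbers and not normalized, and the deposited cell table gives time point and cell type, named by the authors cluster by cluster. Any filter on cells or doublets upstream is not given in the sources used here. All deposited cells of 14 libraries were kept and no doublets were removed. P1 had 2 cell name suffixes and 1 labelled sample, so its 6920 cells (13.0%) were left out. Libraries shared at most 8 barcodes. The cell table was taken to follow the order of the matrix columns, which it matches in number, and its embedding columns and the authors' list of gene names were not used.

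Members were found by the rule given above. The members, lists and comparisons were chosen with earlier results of these data known. UMIs were summed per library and type (at least 10 cells), filtered with filterByExpr, scaled by TMM and tested with glmQLFTest in edgeR 4.0.16 (R 4.3.3), with the library as a block between types. The standard error is the size of the log2 change over the square root of F. The study's own test took each cell as a unit; library sums are used here because cells are not replicates. CPM are unscaled by TMM. Named rows were the 10 highest scores, ranks 98 to 103, at most 2 rises and 2 falls per comparison among called members whose libraries did not overlap or had the same sign, the 2 highest members in late-stage neurogenic progenitors, precursors and cones, and the 4 members in the fewest bipolar cells for their level. The scripts were tested on simulated data. Alternatives were DESeq2 1.42.0 (test and size factors), no filter, no high-UMI cells, thinned sums, no block and each library left out. Totals per library ran from 5068787 to 49415813 UMIs, and intervals and floors of 3 counts cover counting error only. Cells of 1000 or more UMIs were thinned to 1000 with numpy 2.4.6.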

Additional observations from a re-analysis of the deposited data

Results flagged for a closer look

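By the direct test of the difference in slope, the age courses of cones and bipolar cells differed for 71 of the 100 members. Of the 14160 rows tested, 8.99% were called, and the count of members was 31 without P21. The rule compared pooled levels in these types, so the count is not independent of it. Among the named rows the courses differed for row 12819 (−6.49 per 10 days on the log2 scale), row 15516 (−4.93) and row 14621 (2.41). In precursors against amacrine cells, the log2 ratio of CPM plus 1 of row 12297 was 2.42 in P8b, far below its value in the other 4 libraries, and that of row 26355 was −1.22 in P4, far above the rest. These were 2 of 18 groups of 5 or 6 values searched, where chance would give about 1 in 20.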

How the results depend on the processing

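Comparisons of types within libraries had the library as a block. Between ages no paired analysis was possible, because a retina is taken at a single age. DESeq2's test called 24 members in bipolar cells with age (10 in edgeR), 24 in cones with age (14) and 33 in precursors after birth (15). With no filter the counts were 32 in bipolar cells, 10 in late-stage neurogenic progenitors with age (6), 71 in precursors after against before birth (36), 29 in cones and 39 in precursors after birth. Sums thinned to the lowest of each comparison gave 17 in bipolar cells, 1 in late-stage neurogenic progenitors, 1 of 9 tested in precursors after against before birth, 5 in cones, 6 of 12 tested in neurogenic against primary progenitors (30), 36 in precursors against amacrine cells (60), 36 in cones against amacrine cells (67) and 22 in cones against bipolar cells (71). Thinning leaves fewer UMIs and fewer members to test. The share of all rows called can also change with the setting and is not given for the alternatives here or for libraries left out. These counts therefore do not show a shift particular to the members. Without high-UMI cells the counts were 7 in cones and 0 in precursors after birth. Age as a number gave 22 in bipolar cells, and P17 and P21 against earlier libraries gave 1 in cones. Without the library block the counts were 6 in neurogenic against primary progenitors and 39 in precursors against amacrine cells.

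With each library left out in turn, the counts ran from 0 to 25 in bipolar cells (0 without P8a, 1 without P8b, 18 without P12a and without P12b, 25 without P17), 2 to 10 in late-stage neurogenic progenitors, 33 to 52 in precursors after against before birth, 1 to 18 in cones, 18 (without P8a) to 31 in neurogenic against primary progenitors, 55 to 67 in precursors and 54 to 75 in cones against amacrine cells, 0 to 30 in precursors after birth and 31 to 79 in cones against bipolar cells. The slope difference of row 14621 ran from −2.18 without P21 to 3.00 without P17. The cause of these shifts was not tested. The median change of the members kept its sign in 95 of 95 alternatives of the 8 comparisons other than cones against amacrine cells. Of 266 values of named rows under alternatives, 236 stayed called in the same direction and 29 were no longer called. Another pseudocount left 99 (1 CPM) or 93 (50 CPM) members in the list, equal weights for libraries 84, and leaving out high-UMI cells 92.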
